A study of Xenopus laevis with 15 samples.

Results

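Pools of whole Xenopus laevis embryos (the African clawed frog) with the replicate letters A and B were compared by RNA sequencing with pools that carry the letters D and E. There were 12 such pools among the 15 sequenced: 6 with the letters A and B and 6 with the letters D and E, in each case 2 from the lead 630 group, 2 from the lead 210 group and 2 controls. The 3 pools with the letter C stood outside the comparison. Each pool held 3 individuals, 6 days after fertilization, from matings within an established colony. Embryos entered water with lead(II) nitrate, or water alone for controls, 48 h after fertilization (near stage 29 of Nieuwkoop and Faber) and stayed there for 96 h at 21 °C. The lead levels 210 and 630 are used as names without a unit, because 2 sources in the labels disagree on it (ng/L in the sample labels, µg/L in the treatment protocol).

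The letters were chosen by measured values: earlier inspection of the same counts had found that the main variation between pools that is not lead ran between these letters. Differences between the A and B pools and the D and E pools are therefore a description, with no test and no p-value, and the counts of genes past a threshold are given only to show their extent. Nothing in the labels says what a letter stands for, nor whether pools came from separate dishes or clutches. Where p-values are given, they measure the spread between these pools.

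A pool of whole embryos mixes the RNA of all tissues, so a gene used by 1 tissue is read against the total of all others. In bulk pools of this kind, fewer cells of a type and less RNA per cell cannot be told apart. At this age the embryo is a young swimming tadpole. Its eye lens fills with crystallins, the transparent proteins made by lens fibre cells; its head skeleton is cartilage, built from type II, IX and XI collagens and aggrecan; its retina carries rods and cones; and its gut is becoming a feeding gut with stomach, intestine and pancreas. X. laevis carries 2 related copies of many genes, called homeologs and marked .L and .S, and each copy was counted on its own.

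Pools with the letters A and B held 10.8 to 17.4 M counts (M, counts in units of 1e+06; median 13.8 M), pools D and E 12.6 to 24.7 M (median 17.6 M) and pools C 13.8 to 24.3 M. The depth of A and B pools thus tended to be lower, with overlapping ranges, and its part in the differences was not tested. Levels are in counts per 1e+06 counts (CPM), on library sizes scaled by TMM. A floor of 3 counts stood at 0.122 to 0.277 CPM in these libraries. The scaling factors spanned 0.99 to 1.03 in A and B pools and 0.976 to 1.03 in D and E pools. The first principal component of log2 CPM held 20.1% of the variance over all 15 pools. A and B pools lay between -13.0 and 53.3 on it and D and E pools between -40.8 and -4.38, with overlap over all lead groups. Within each lead group both A and B pools lay above both D and E pools. The values were 41.6 and 53.3 against -11.4 and -4.38 in controls and 3.04 and 10.8 against -7.88 and -40.8 at lead 210. At lead 630 they were -13.0 and 17.0 against -27.8 and -23.7. The letters were chosen from these counts, so this order is a description. Control B stood apart in 1 respect: its digestive enzyme RNAs were far above those of every other pool, and counts without it are given for the 12 gene lists with over 5 genes past the threshold. In the other 37 lists no count moved by more than 2 genes without it, and those that moved by 2 are given with both values. Other markers of a whole embryo were present in every pool, with skeletal muscle genes at a summed 65570 to 83760 CPM in A and B pools and 62410 to 93330 CPM in D and E pools.

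Of 27690 genes tested, 2081 (7.52%) were past an adjusted p of 0.05 and higher in A and B pools, and 1407 (5.08%) were past it and lower. These thresholds come from edgeR's quasi-likelihood test with Benjamini-Hochberg adjustment and the lead group as a covariate. Counts in every gene list below stand beside these shares of all genes. Most differences were small: the median absolute log2 difference was 0.15, the 90th percentile was 0.46, and the median of all signed differences was 0.004. The larger ones lay on 1 side, with 137 genes at least 2-fold higher among those past the threshold and 10 at least 2-fold lower. Both A and B pools lay above both D and E pools in all 3 lead groups for 1827 genes (6.6%), and below them in all 3 for 1347 genes (4.86%). Homeologs that were both past the threshold mostly shared a direction. Among 7183 tested pairs this was so in 416, and in 414 of these the copies had the same direction, 226 higher and 188 lower. In 1232 pairs 1 copy was past it. Shared direction was not counted in those pairs or in pairs with 0 copies past it.

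**Figure D1:**
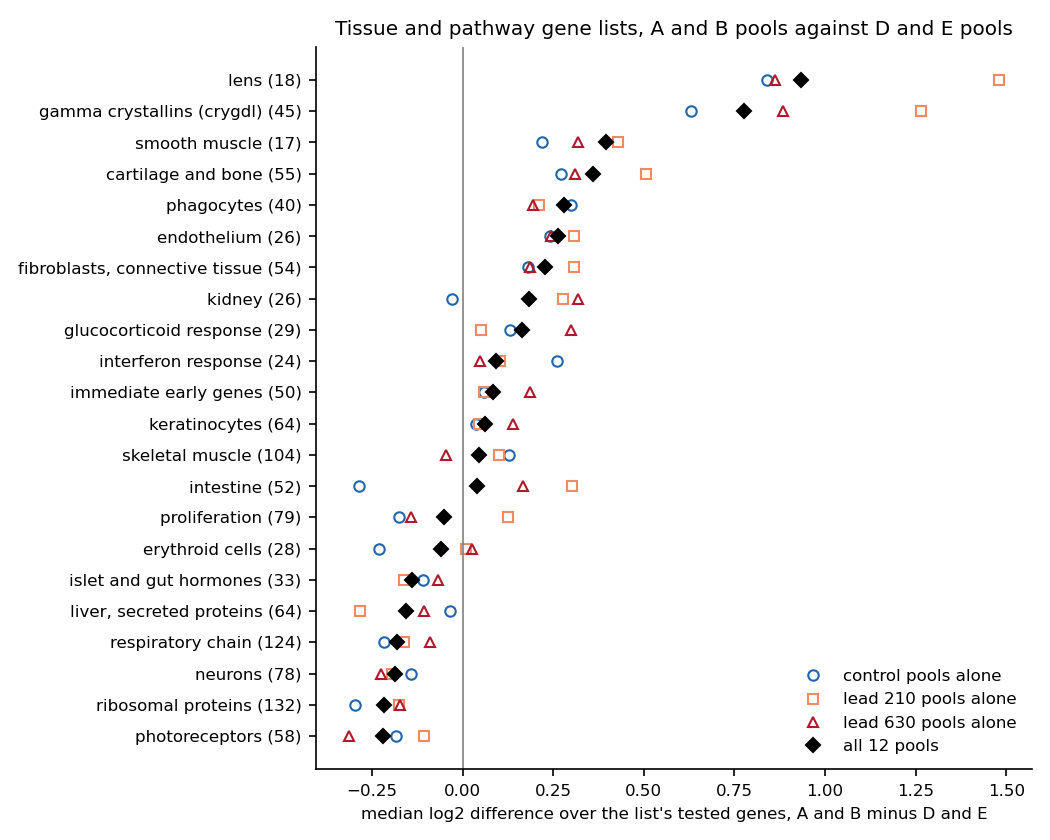
Median log2 difference, A and B pools minus D and E pools, over the tested genes of 22 gene lists (number of genes in brackets). Black diamonds use all 12 pools and open symbols the 4 pools of 1 lead group. Lens genes stand furthest right at 0.93, and photoreceptor, ribosomal protein, neuron and respiratory chain genes lie left of 0 in each lead group.

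Genes of the skeleton and of connective tissue mostly had positive differences, and part of them passed the threshold. Of 55 tested genes of cartilage and bone, 15 were past the threshold and higher and 0 lower, 50 of 55 had a positive difference, and the median log2 difference was 0.36, against 0.004 for all genes tested; the counts were also 15 and 0 without control B. The summed level was 4276 to 6779 CPM in A and B pools (median 5233) and 3386 to 6308 CPM in D and E pools (median 4209), with overlap. The gene of matrilin 3, an adaptor protein of cartilage matrix, had large differences in both copies. The matn3.S copy (Entrez 108717495) had 2.13 to 5.07 CPM in A and B pools (median 2.81) and 0.242 to 1.82 CPM in D and E pools (median 0.874). No A or B pool overlapped a D or E pool, and the log2 difference was 1.94 ± 0.27 (SE). The matn3.L copy lay near the floor, with a median of 1.13 CPM in A and B pools and 0.286 CPM in D and E pools. Chondroadherin, a leucine-rich protein that binds collagen II, followed: chad.L had a median of 12.3 CPM in A and B pools and 6.74 CPM in D and E pools, with overlapping ranges and a log2 difference of 0.85 ± 0.14. The main collagen of cartilage was less different, with log2 differences of 0.48 ± 0.12 for col2a1.S and 0.21 for col2a1.L, and the aggrecan gene acan.L stood at 0.62 ± 0.23 without passing the threshold. The col2a1 and acan genes were chosen after their values were seen.

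Among 54 genes of fibroblasts and connective tissue, 16 were past the threshold and higher and 1 lower, with a median log2 difference of 0.23; without control B the counts were 23 and 0. The summed levels overlapped widely, at 13710 to 19410 CPM in A and B pools (median 16160) and 15240 to 19090 CPM in D and E pools (median 16210). The receptor gene pdgfra.S, which marks mesenchymal cells, had 21.1 to 30.5 CPM in A and B pools (median 26.0) and 10.5 to 18.3 CPM in D and E pools (median 12.4), without overlap. Its log2 difference was 0.98 ± 0.13. Fibrillins build the microfibrils of elastic tissue. The copy fbn2.S was higher by 1.28 ± 0.27, fbn1.S by 0.51 ± 0.09 and fbn3.L by 0.38 ± 0.07 on the log2 scale. The rule took these copies from genes past the threshold, so that they differed was fixed by the choice. Other fibrillin copies are not given here. Collagen I, the main collagen of skin and bone, did not go with the copies named. The member past the threshold and lower was col1a1.S, at -0.27 ± 0.07, and col1a1.L stood at -0.24, whereas the collagen V gene col5a1.S was higher by 0.75 ± 0.16 and the collagen cross-linking enzyme gene loxl2.L by 0.76 ± 0.18. These collagen and loxl2 genes were picked after their values were seen.

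Genes past the threshold that averaged 5 CPM or more were ranked by difference. Genes without a symbol, or with a placeholder symbol such as LOC and a number, were left out of the ranking. The 8 ranked genes with the largest positive differences were col8a2.L, crygdl.12.L, dennd2a.S, thbs1.L, thbs1.S, fbn2.S, crygdl.5.L and olfml2b.L. Thrombospondin 1 is a matrix glycoprotein of platelets, vessels and connective tissue that binds TGF-beta. Its gene thbs1.L (Entrez 379508) had 15 to 26.8 CPM in A and B pools (median 19.6) and 5.87 to 11.9 CPM in D and E pools (median 7.30). The sets did not overlap, and the log2 difference was 1.32 ± 0.17, with 1.39 within controls, 1.31 at lead 210 and 1.33 at lead 630. The gene thbs1.S, which the authors' deposited tables name as another thrombospondin, had 19.4 to 28.1 CPM in A and B pools (median 24.3) and 6.96 to 15.9 CPM in D and E pools (median 8.55), a log2 difference of 1.29 ± 0.15. Collagen VIII is a short-chain collagen of the corneal basement membrane and of vessel walls. Its gene col8a2.L (Entrez 108707696) had 5.30 to 13.2 CPM in A and B pools (median 8.55) and 1.53 to 6.31 CPM in D and E pools (median 2.67), a log2 difference of 1.54 ± 0.24. Ranges overlapped over the whole set, because control D lay at 6.31 CPM, but within each lead group both A and B pools lay above both D and E pools. The gene of the olfactomedin-like secreted protein olfml2b.L differed by 1.2 ± 0.16, without overlap, and the Rab regulator gene dennd2a.S by 1.33 ± 0.25, with overlap.

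**Figure D2:**
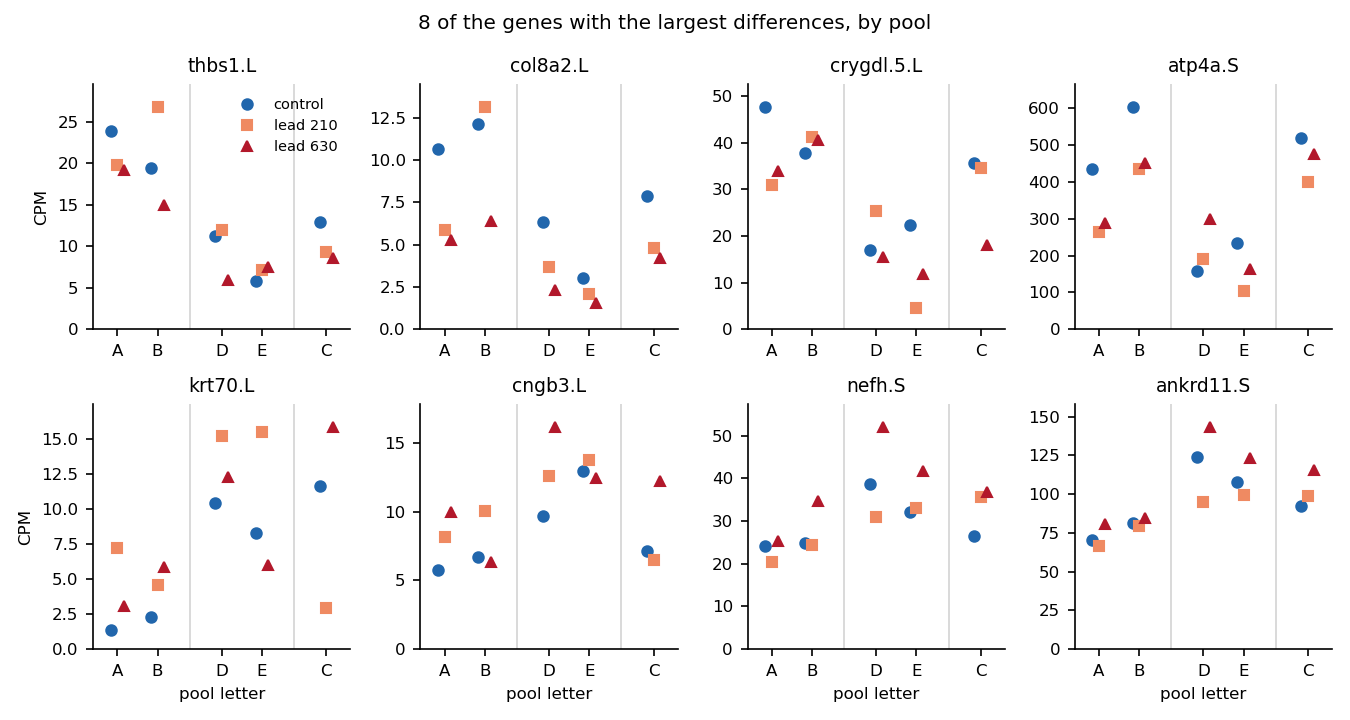
CPM in every pool for 8 of the genes named, with A and B pools on the left, D and E pools in the middle and C pools on the right. Symbols give the lead groups. The genes were picked from those ranked by largest difference, apart from atp4a.S, which was named from the stomach list. In the upper row A and B pools are mostly higher (thbs1.L at 15 to 26.8 CPM, against 5.87 to 11.9 CPM in D and E pools), and in the lower row they are mostly lower.

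Lens genes had the largest median difference of any list with over 15 genes other than exocrine pancreas, which is set apart by 1 pool. All 18 tested genes had a positive difference, with a median of 0.93 on the log2 scale, and 4 passed the threshold (5 without control B). The summed level of the list was 1222 to 1610 CPM in A and B pools (median 1314) and 224.1 to 1050 CPM in D and E pools (median 791), without overlap. Lead 210 E was lowest by far at 224.1 CPM, and the other 5 D and E pools lay at 565.4 CPM or above. Lens genes also differed within the D and E set, with a median D minus E difference of 0.79. Among those that passed were both copies of bfsp2, a beaded filament gene of the lens fibre cytoskeleton, with bfsp2.L at 1.58 ± 0.37 and bfsp2.S at 1.2. Another was crybg3.S at 0.61 ± 0.12; crybg3 is a crystallin-like gene that is not specific to the lens. The beta crystallin gene crybb1.L and the lens water channel gene mip.L differed by 0.97 ± 0.32 and 1.01 ± 0.31, and neither passed. Apart from crybg3.S, these genes were chosen after their values were seen.

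The gamma crystallins are the small, densely packed proteins of the lens fibre core, and in this frog they form a large family of near-identical copies named crygdl. Reads of such copies can be shared or misplaced, so single values are uncertain and the family is better read as a sum. All 45 tested copies had a positive difference (median 0.78 on the log2 scale), a list added after the values were seen. The summed level was 1968 to 2519 CPM in A and B pools (median 2152) and 478.1 to 2122 CPM in D and E pools (median 1345). The ranges overlapped, because lead 210 D reached 2122 CPM, and lead 210 E was again the lowest pool. Copies crygdl.12.L and crygdl.5.L passed the threshold, at 1.45 ± 0.39 and 1.26 ± 0.33, and 0 copies passed without control B. The copy crygdl.5.L had 30.9 to 47.8 CPM in A and B pools (median 39.2) and 4.64 to 25.4 CPM in D and E pools (median 16.3), without overlap. For each of these copies, leaving out any 1 of 10 of the 12 pools took it back over the threshold, while the log2 difference stayed between 1.07 and 1.93.

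Endothelial genes, those of the inner lining of vessels, mostly had positive differences too. Of 26 endothelial genes, 9 were past the threshold and higher and 0 lower (7 and 0 without control B), 25 of 26 were positive, and the median was 0.26. The adhesion gene pecam1.S, which marks endothelial cell junctions, had 4.34 to 7.09 CPM in A and B pools (median 6.09) and 2.48 to 4.59 CPM in D and E pools (median 2.92), a log2 difference of 0.92 ± 0.15. The ranges overlapped slightly. The angiopoietin receptor gene tek.S differed by 0.55 ± 0.12, the lymphatic receptor gene lyve1.L by 0.86 ± 0.20 and the von Willebrand factor gene vwf.L, chosen after its value was seen, by 0.77 ± 0.18. Of 17 smooth muscle genes 16 were positive with a median of 0.40, and 2 passed. They were the actin gene acta2.S, not named by the rule, at 0.46 ± 0.13 and cnn1.L at 0.56 ± 0.13. The authors' deposited tables name cnn1.L as another calponin. Counts of the endothelial and smooth muscle lists stand beside 7.52% higher and 5.08% lower among all genes.

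Among 40 genes of phagocytes, 33 were positive, 6 passed and were higher, 0 were lower, and the median was 0.28; without control B the count past the threshold was 3. The myeloid transcription factor gene spi1.L had 2.65 to 5.89 CPM in A and B pools (median 4.20) and 2.36 to 2.91 CPM in D and E pools (median 2.45), a log2 difference of 0.72 ± 0.15. The leukocyte integrin gene itgb2.L differed by 0.61 ± 0.13 and the neutrophil collagenase gene mmp8.S by 0.83 ± 0.23. Genes of the interferon response held 5 of 24 past the threshold and higher and 0 lower. They included the signalling genes stat2.L at 0.50 ± 0.10 and irf9.L at 0.60 ± 0.13 and the antiviral gene mx1.L at 0.89 ± 0.20. The list's median was 0.09, and without control B it was 0.05, with 4 higher. Red cell genes had no common side, with 3 of 28 higher, 2 lower and a median of -0.06. Without control B 1 was higher and 0 lower at a median of -0.04. Phagocyte, interferon and red cell counts stand beside 7.52% higher and 5.08% lower among all genes. The ammonia channel gene rhag.S was higher by 0.57 ± 0.13 and the mitochondrial iron importer gene slc25a37.L, near the floor, by 1.18 ± 0.34, whereas the membrane skeleton gene epb41.L was lower at -0.19 ± 0.05.

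Skin genes did not share 1 direction. Of 64 keratinocyte genes, 12 were past the threshold and higher and 2 lower, with a median of 0.06, and the counts were 11 and 1 without control B. The cross-linking enzyme gene tgm1.L had 24.9 to 32.4 CPM in A and B pools (median 29.8) and 18.2 to 23.2 CPM in D and E pools (median 20.2), without overlap, a log2 difference of 0.52 ± 0.07. The desmosomal cadherin gene dsc3.L differed by 0.80 ± 0.14 and the integrin gene itgb4.S, which anchors basal cells, by 0.53 ± 0.10. The lower members were keratins, krt15.2.L at -0.29, picked after its value was seen, and krt70.L. The gene krt70.L (Entrez 380402) had the largest lower value of all genes named: 1.37 to 7.24 CPM in A and B pools (median 3.85) and 5.97 to 15.5 CPM in D and E pools (median 11.4), a log2 difference of -1.51 ± 0.28. Its C pools ran from 2.95 to 15.9 CPM, and its copy krt70.S stood at -0.02. Of other epidermal cell types, ionocytes held 2 of 23 higher and 1 lower, multiciliated cells 1 of 44 higher and 1 lower, and mucus-secreting cells 1 of 14 higher and 1 lower. Among all genes 7.52% were higher and 5.08% lower, so these small counts do not set the lists apart. The transcription factor gene dmrt2.L of the ionocyte list differed by 0.97 ± 0.18, the microtubule gene tppp3.L of the ciliated cell list by 0.38 ± 0.11 and the mucin glycosylation gene galnt6.2.L by 0.44 ± 0.12.

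Many neuronal genes were lower in A and B pools. Of 78 neuronal genes, 38 were past the threshold and lower and 1 higher, with a median of -0.19; without control B the counts were 32 and 1. The summed level was 4793 to 5530 CPM in A and B pools (median 5280) and 5434 to 6339 CPM in D and E pools (median 6120), overlapping by the lowest D and E pool alone. Neurofilaments, the intermediate filaments of axons, led the list. The light chain gene nefl.L (Entrez 397822) had 85.2 to 101 CPM in A and B pools (median 90.2) and 107 to 120 CPM in D and E pools (median 114), without overlap, a log2 difference of -0.30 ± 0.04. The medium chain genes nefm.L and nefm.S stood at -0.37 ± 0.05 and -0.35 ± 0.05 and the heavy chain gene nefh.S at -0.56 ± 0.09. Synaptic vesicle genes chosen after their values were seen were of like size, with snap25.L at -0.24 ± 0.05 and syn1.L at -0.29 ± 0.07, and the member that was higher was vamp1.L at 0.32 ± 0.08. The chromatin regulator gene ankrd11.S, which belongs to no list, had 66.3 to 84.3 CPM in A and B pools (median 80.2) and 95.2 to 144 CPM in D and E pools (median 115), without overlap, a log2 difference of -0.57 ± 0.07.

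Glial genes had a median of 0.14, with 1 of 26 higher and 1 lower (3 and 1 without control B); the lower one, the radial glia gene fabp7.L, stood at -0.32 ± 0.06. Of 22 pituitary and hypothalamic genes, 3 were lower and 0 higher, and 3 of 33 islet and gut hormone genes were lower and 0 higher. These small counts, and those of glia, stand beside 7.52% higher and 5.08% lower among all genes. The neuropeptide Y gene npy.S, which is also used by neurons outside the hypothalamus, had 8.40 to 12.2 CPM in A and B pools (median 11.3) and 12.5 to 15.7 CPM in D and E pools (median 14.6), a log2 difference of -0.42 ± 0.09. The granin gene chgb.L stood at -0.21 ± 0.05. The forebrain and eye transcription factor gene otx2.L, listed with the cement gland, stood at -0.34 ± 0.08.

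Within the eye, photoreceptor genes stood on the side opposite to lens genes. Of 58 photoreceptor genes, 21 were past the threshold and lower and 0 higher, with a median of -0.22; without control B the counts were 17 and 0. The photoreceptor transcription factor gene crx.L (Entrez 398118) had 33.5 to 41.4 CPM in A and B pools (median 37.3) and 43.2 to 57.6 CPM in D and E pools (median 51.0), without overlap, a log2 difference of -0.42 ± 0.07. The cone channel gene cngb3.L had 5.77 to 10.1 CPM in A and B pools (median 7.46) and 9.71 to 16.2 CPM in D and E pools (median 12.8), a log2 difference of -0.74 ± 0.13. The outer segment protein gene rom1.S stood at -0.36 ± 0.07 and the photoreceptor transport gene tulp1.S at -0.59 ± 0.10. Both rod and cone genes took part, with the rod transducin gene gnat1.L at -0.27 ± 0.07 and the short-wave opsin gene opn1sw.L at -0.31 ± 0.08, and rhodopsin (rho.L) stood at -0.23 ± 0.09 without passing; these were chosen after their values were seen.

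**Figure D3:**
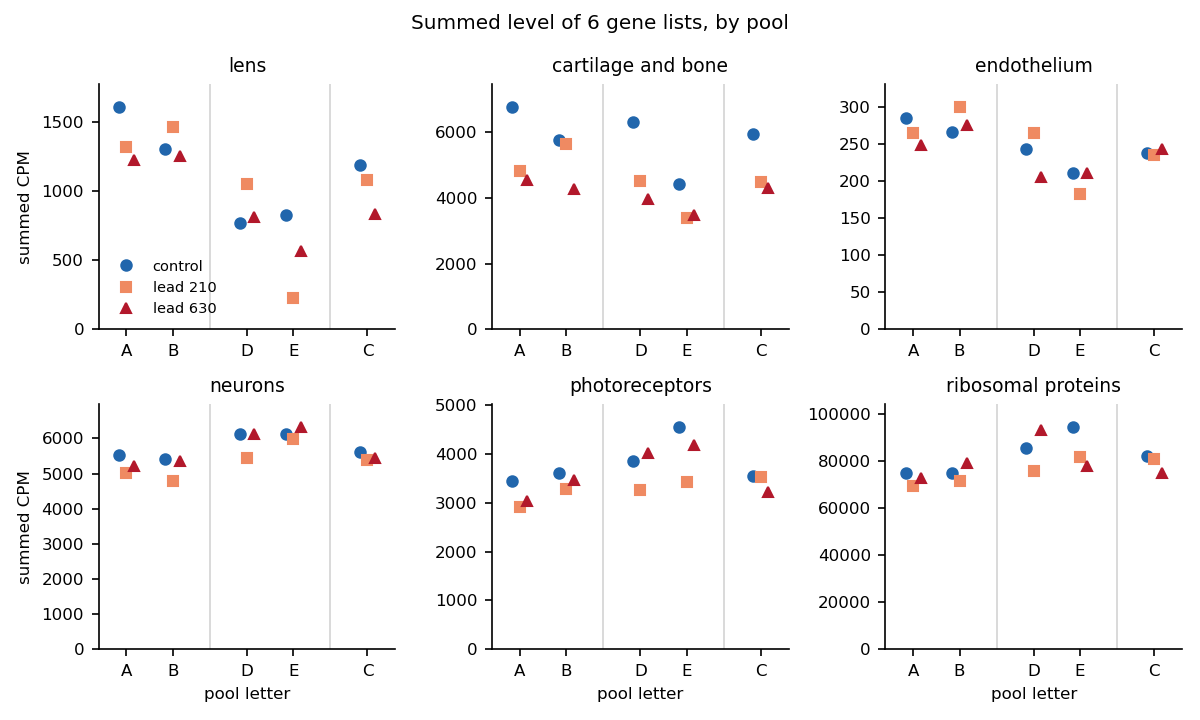
Summed CPM of 6 gene lists in every pool, with A and B pools on the left, D and E pools in the middle and C pools on the right; symbols give the lead group and all axes start at 0. Lens sums are 1222 to 1610 CPM in A and B pools and 224.1 to 1050 CPM in D and E pools, while neuronal and ribosomal sums are mostly lower in A and B pools.

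Many ribosomal protein genes, which supply the protein part of ribosomes, were lower in A and B pools. Of 132 tested, 89 were past the threshold and lower in A and B pools and 0 higher, with a median of -0.22. Without control B, 40 were lower and 0 higher, at a median of -0.21. The summed level was 69250 to 78840 CPM in A and B pools (median 73620) and 75730 to 94490 CPM in D and E pools (median 83560), with overlap. The gene rps9.L had 239 to 319 CPM in A and B pools (median 285) and 328 to 419 CPM in D and E pools (median 376), a log2 difference of -0.42 ± 0.08, and rpl31.L and rps12.L stood at -0.39 ± 0.06 and -0.35 ± 0.06. Nuclear genes of the respiratory chain, which makes ATP in mitochondria, had 50 of 124 past the threshold and lower and 0 higher, with a median of -0.18; without control B, 41 were lower and 0 higher. The ATP synthase gene atp5mf.S had 69.0 to 93.3 CPM in A and B pools (median 81.3) and 102 to 113 CPM in D and E pools (median 108), a log2 difference of -0.41 ± 0.06. The complex I genes ndufs6.S and ndufb4.L stood at -0.38 ± 0.05 and -0.45 ± 0.07.

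The direction went with the level of a gene. Among 1508 genes over 100 CPM, 50 were past the threshold and higher and 297 (19.7%) lower, whereas among 8558 genes under 5 CPM, 492 (5.75%) were higher and 53 lower. Without the ribosomal protein and respiratory chain lists, 1336 genes over 100 CPM were left, of which 50 were higher and 200 (15%) lower. The median of all genes was 0.004 with TMM, -0.006 with RLE size factors and -0.003 with upper quartile scaling. Each of these scalings centres the differences, so medians this small were set in advance. The part of scaling in the direction by level was not tested. The part of gene level in the list results was not tested.

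**Figure D4:**
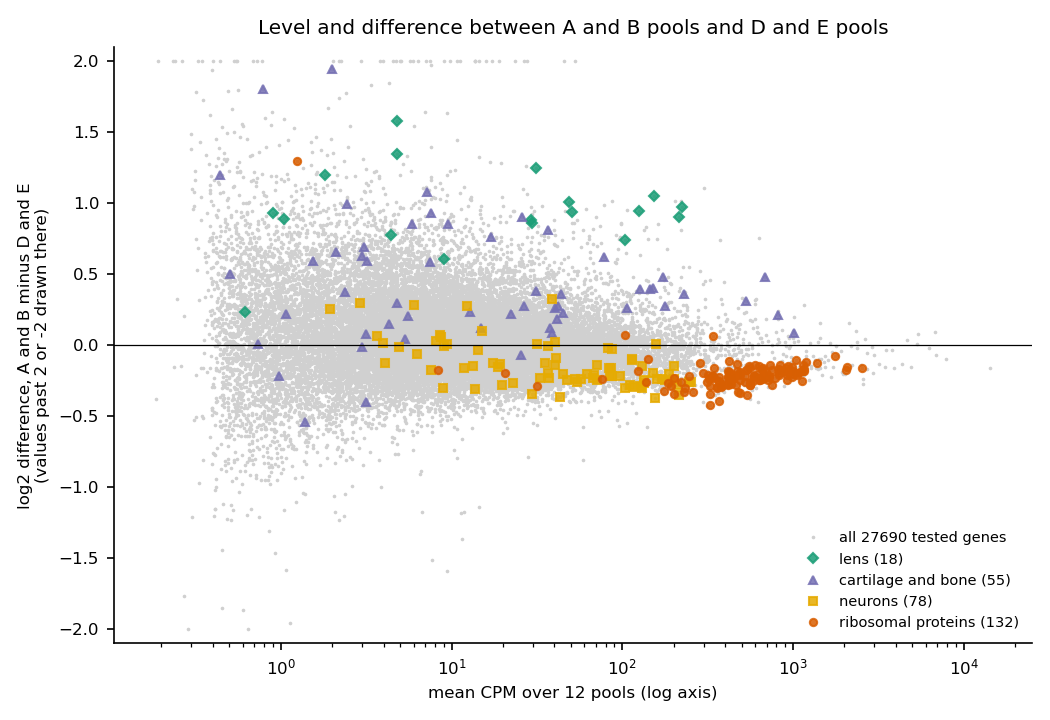
Mean CPM over the 12 pools (log axis) and log2 difference, A and B minus D and E, of all 27690 tested genes in grey, with lens, cartilage and bone, neuronal and ribosomal protein genes in colour. Lens genes lie above 0 at every level (median 0.93), and ribosomal protein genes form a narrow band just below 0 at high levels (median -0.22).

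The digestive tract gave mixed values. Counts in its lists, and in those of kidney and liver, stand beside 7.52% higher and 5.08% lower among all genes. The proton pump gene of the stomach, atp4a.S (Entrez 733327), had 265 to 604 CPM in A and B pools (median 435) and 103 to 301 CPM in D and E pools (median 177), a log2 difference of 1.11 ± 0.27. The sets overlapped, and leaving out any 1 of 8 of the 12 pools took it back over the threshold. The beta subunit copies atp4b.L and atp4b.S stood at 0.51 and 0.82 without passing, and in all 1 of 9 stomach genes was higher (0 without control B). Of 52 intestinal genes 2 were higher, one of them the brush border cadherin gene cdhr2.L at 0.47 ± 0.10, and in the kidney list 2 of 26 were higher and 1 lower (1 and 0 without control B), with the tubule endocytosis receptor gene lrp2.L at 0.48 ± 0.08 without overlap. Genes of plasma proteins made by the liver held 0 of 64 higher and 2 lower, a share below the 5.08% of all genes, at a median of -0.16; without control B 1 was lower, at a median of -0.29. The complement gene c5.L stood at -0.39 ± 0.10. Liver enzymes held 5 of 31 higher and 0 lower (3 and 1 without control B). The list had no common side, with 16 of 31 positive and a median of 0.05. The higher members included the tyrosine aminotransferase genes tat.S and tat.L at 0.33 ± 0.07 and 0.32 ± 0.08 and the glutaminase gene gls2.L at 0.44 ± 0.10.

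Exocrine pancreas genes could not be compared between the sets, because control B decided them. Their summed level was 2855 CPM in control B, and the other 5 A and B pools lay between 17.3 and 103 CPM, against 21.1 to 48.7 CPM in D and E pools. Of the 20 genes measured, 16 were highest in control B and 15 of these were at least 10 times the next pool. Chymotrypsin C (ctrc.L) stood at 610 CPM in control B and at 21.7 CPM in the next pool, lead 630 B, and carboxypeptidase A1 (cpa1.L) at 536 CPM and 7.79 CPM in the same pools. The median over the other 14 pools was 0.495 CPM for ctrc.L and 0.311 CPM for cpa1.L. No gene of the list passed the threshold in either direction, with or without control B. The fitted median of 6.08 with control B and 1.26 without it rests on genes near the floor in most pools and is no measure of the sets.

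**Figure D5:**
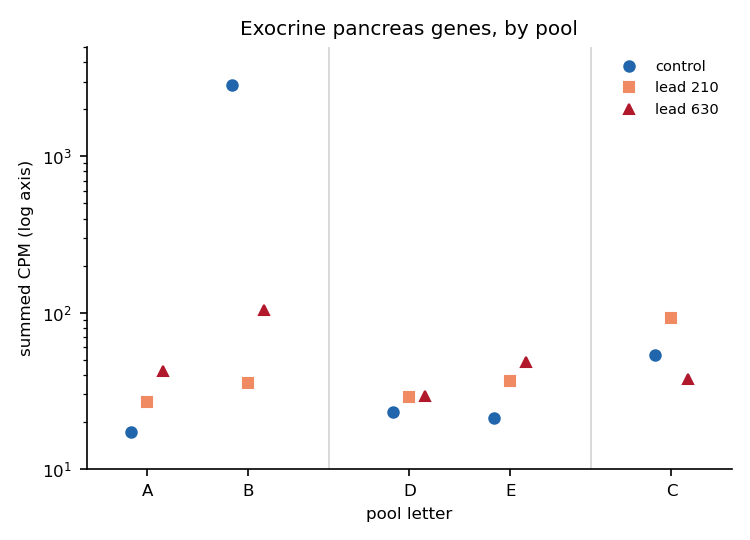
Summed CPM of exocrine pancreas genes in every pool on a log axis, with A and B pools on the left, D and E pools in the middle and C pools on the right. Control B stands at 2855 CPM, and the next highest pool, lead 630 B, at 103 CPM.

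Counts in the lists of stress, hormone and metabolic responses stand against 7.52% higher and 5.08% lower among all genes. Of 29 glucocorticoid response genes, 7 were higher and 0 lower (6 and 0 without control B), with a median of 0.16. The receptor gene itself, nr3c1.S, had 6.90 to 8.77 CPM in A and B pools (median 8.13) and 3.81 to 7.18 CPM in D and E pools (median 5.24), a log2 difference of 0.63 ± 0.12. The pyruvate dehydrogenase kinase gene pdk4.S differed by 0.27 ± 0.06, without overlap. It was also counted in the fatty acid oxidation list, and tat.S in both the glucocorticoid and the liver enzyme list, so these counts are not separate. Immediate early genes, which answer growth factors and handling within minutes, held 7 of 50 higher and 0 lower at a median of 0.08 (6 and 0 without control B). The matricellular gene ccn2.L differed by 0.38 ± 0.06 and the transcription factor genes klf6.L and klf6.S by 0.28 ± 0.06 and 0.65 ± 0.14, while fos.S and egr1.L, chosen after their values were seen, stood at -0.01 and 0.09. Hypoxia genes held 6 of 36 higher and 0 lower at a median of 0.002 (5 and 0 without control B), with hif1a.L at 0.24 ± 0.05, ndrg1.L at 0.33 ± 0.07 and pfkfb4.L at 0.32 ± 0.07. Heat shock genes held 2 of 33 higher, a share near that of all genes, with hspa1a.L at 1.64 ± 0.47 and a median of 0.261 CPM in D and E pools, near the floor. The authors' deposited tables name hspa1a.L as a heat shock cognate 71 kDa protein, so its identity is uncertain. Of 45 genes of endoplasmic reticulum stress 0 passed in either direction.

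In lipid metabolism, 4 of 36 fatty acid oxidation genes were higher and 1 lower, with the electron transfer gene etfdh.L and the carnitine transferase gene cpt1al.L both at 0.30 ± 0.06. Cholesterol synthesis held 2 of 42 higher and 2 lower, with fdps.L at -0.36 ± 0.09, and lipogenesis 1 of 20 higher and 1 lower, with the regulator gene srebf1.S at 0.34 ± 0.07. Among 21 genes of metal handling, 4 were higher and 0 lower, but the list had no common side, with 11 of 21 positive and a median of 0.03. The divalent metal importer gene slc11a2.L had 5.24 to 8.26 CPM in A and B pools (median 6.43) and 2.18 to 5.23 CPM in D and E pools (median 3.07), without overlap, a log2 difference of 0.96 ± 0.15. Glutathione and NRF2 genes held 5 of 37 higher and 0 lower (3 and 0 without control B), with small values, as abcc1.L at 0.32 ± 0.08, akr1b1.L at 0.22 ± 0.05 and the regulator gene nfe2l2.S at 0.20 ± 0.05. Of 21 genes of the thyroid hormone system, 2 were higher and 1 lower.

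Several other lists had few genes past the threshold, and their counts stand beside 7.52% higher and 5.08% lower among all genes. A single member past it does not describe its list. Skeletal muscle, the largest of the tissue lists by level, held 3 of 104 higher and 2 lower with a median of 0.05: the excitation-contraction genes trdn.L and jsrp1.L stood at -0.57 ± 0.15 and -0.32 ± 0.07, and the actin-associated genes xirp1.S and tmod1.L at 1.08 ± 0.29 and 0.62 ± 0.15. The heart list held 1 of 25 higher, the transcription factor gene gata4.L at 0.86 ± 0.20. Proliferation genes held 2 of 79 higher with a median of -0.05, foxm1.S at 0.63 ± 0.15 among them. The division marker genes mki67.L and mki67.S stood at -0.07 ± 0.09 and -0.15 ± 0.08. The authors' deposited tables name mki67.L as treacle protein, so its identity is uncertain. Hox genes, which set position along the body axis, held 2 of 50 higher and 1 lower, and the higher ones were the 2 copies of a tail-end gene, hoxc12.L at 0.68 ± 0.13 and hoxc12.S at 0.96. Single members past the threshold were also gfi1.L of the inner ear (0.73 ± 0.22), mitf.S of pigment cells (0.64 ± 0.17), rora.L of the circadian clock (0.66 ± 0.16) and tdrd5.L of the germ line (0.83 ± 0.24). Notochord, antigen presentation and sex determination lists held 0 in either direction, among 6, 8 and 4 genes.

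The C pools, which the choice of letters left out, lay between the sets by median difference in the 5 lists given first, but not in every list. Their lens genes were higher than in D and E pools by a median of 0.57 on the log2 scale and lower than in A and B pools by a median difference, A and B minus C, of 0.39. For cartilage and bone these medians were 0.22 and 0.14, for fibroblasts 0.07 and 0.13, for ribosomal proteins -0.11 and -0.11, and for neurons -0.14 and -0.04. Endothelium (0.195 and 0.094) and photoreceptors (-0.162 and -0.067) also had C pools between the sets. In smooth muscle (0.32 and -0.01), stomach (0.35 and -0.17) and intestine (0.24 and -0.17) the C pools were instead above both sets by these medians. The C pools had 8.63 to 12.9 CPM of thbs1.L, with control C between the sets and the other C pools within the range of D and E pools, and 2.80 to 3.31 CPM of olfml2b.L, within the range of D and E pools. For atp4a.S they lay with A and B pools, at 399 to 519 CPM. The 2 medians of a list share the C pools, there is 1 such pool in each lead group, and no test was made. The sets were chosen from these counts because the main variation ran between them. A middle place of the C pools was thus partly fixed by that choice and is a description only.

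The letters of a set were also compared with each other. The sets had been formed from the same counts, with letters that varied alike put together, so a low number of calls within a set was partly fixed by that choice. Between A and B pools (3 against 3), edgeR's quasi-likelihood test called 1 of 27690 genes (0.00361%; 1214 genes, 4.38%, had an unadjusted p under 0.05), limma-voom called 0 and DESeq2 29. The gene called was the alpha tubulin gene tuba1cl.2.S (Entrez 108702925): it had 84.0, 48.4 and 49.7 CPM in control, lead 210 and lead 630 A pools and 123, 80.7 and 90.1 CPM in the B pools, a log2 difference of -0.71 ± 0.08 (edgeR adjusted p = 0.023). The A pool was lower in all 3 lead groups; the call ended without control B, lead 210 A or lead 630 A. Next came hamp2.L, a gene of hepcidin, the liver hormone that limits iron uptake. It had 16.7, 8.98 and 8.50 CPM in control, lead 210 and lead 630 A pools and 32.1, 20.6 and 32.2 CPM in B pools, a log2 difference of -1.33 ± 0.17 that did not pass (edgeR adjusted p = 0.0639). Among genes of 5 CPM or more with a symbol that is no placeholder, the anion transporter gene slc26a9.L followed at -0.90 ± 0.16 (edgeR adjusted p = 0.71). On the other side of that ranking stood pgap6.L, thdl17.L and the transglutaminase gene tgm3l.1.L at 0.59 ± 0.13, 0.51 ± 0.11 and 0.67 ± 0.15 (edgeR adjusted p = 0.831 each).

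Between D and E pools (3 against 3) edgeR called 0 genes (0%; 982 genes, 3.55%, had an unadjusted p under 0.05), limma-voom 0 and DESeq2 6. Genes under 5 CPM, without a symbol or with a placeholder symbol were not ranked. Among the rest, the smallest p-values belonged to the pericyte proteoglycan gene cspg4.L, at 0.82 ± 0.15, the gamma crystallin copy crygdl.3.S, at 1.90 ± 0.34, and lmcd1.S, at 0.70 ± 0.14 (edgeR adjusted p = 1 each). The copy crygdl.3.S had 6.88, 7.91 and 7.02 CPM in control, lead 210 and lead 630 D pools and 1.94, 1.06 and 2.65 CPM in E pools, so that the E pool was lower in all 3 lead groups. The whole crystallin family had a median D minus E difference of 0.79 and lens genes one of 0.79, given without a test. For cartilage and bone this median was 0.338, for endothelium 0.215 and for fibroblasts 0.155. Between the sets the medians of these lists were 0.359, 0.262 and 0.227, so they were not much larger. For the crystallin family the median was 0.775 between the sets and 0.785 between D and E pools. For lens genes these values were 0.933 and 0.791. Neuronal genes (-0.055) and ribosomal protein genes (0.003) differed little between D and E pools. Liver secreted proteins had a median A minus B difference of -0.595. Lower in D pools were plppr3.S, psph.L and eps8l3.S at -0.32 ± 0.08, -0.44 ± 0.11 and -0.50 ± 0.13 (edgeR adjusted p = 1 each). Over all tested genes the median absolute difference was 0.11 between A and B pools and 0.10 between D and E pools. Among genes of at least 5 CPM the median SE was 0.12 in both.

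The response to lead was also compared between the sets, as the difference between the lead effect in A and B pools and that in D and E pools. For lead 630 edgeR called 0 genes (0%; 1057, 3.82%, had an unadjusted p under 0.05), limma-voom 0 and DESeq2 5, and for lead 210 edgeR called 0 (0%; 1124, 4.06%), limma-voom 0 and DESeq2 5. Among genes of at least 5 CPM the median SE of these differences was 0.21 on the log2 scale, so small ones could not be seen. Metallothionein mt4.L, a metal-binding protein, had a log2 response to lead 630 of 3.21 ± 0.24 in A and B pools and 2.79 ± 0.23 in D and E pools, a difference of 0.42 ± 0.31 (edgeR adjusted p = 1). At lead 210 the responses were 2.44 and 2.46. The glutathione transferase gene gstp1.L (Entrez 398321) responded to lead 630 by 5.51 ± 0.23 in A and B pools and 4.25 ± 0.21 in D and E pools, a difference of 1.26 ± 0.28 that did not pass (edgeR adjusted p = 1). Its controls stood at 12.0 and 16.3 CPM in pools A and B and at 23.5 and 21.2 CPM in pools D and E, while control C stood at 64.2 CPM.

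Genes without a symbol or with a placeholder symbol were left out of the ranking here too. Among positive lead 630 differences, the smallest p-values belonged to the brush border lactase gene lct.2.L and to the carboxypeptidase gene cpo.1.L. Among negative ones the smallest belonged to usp33.L, at -1.21 ± 0.23, which did not pass either. The log2 response of lct.2.L to lead 630 was 1.93 ± 0.13 in A and B pools and 0.95 ± 0.13 in D and E pools, a difference of 0.98 ± 0.18 (edgeR adjusted p = 1). For cpo.1.L the responses were 1.19 ± 0.18 in A and B pools and -0.06 ± 0.17 in D and E pools, and at lead 210 they were 1.43 ± 0.18 and 0.01 ± 0.17 (edgeR adjusted p = 0.792 at lead 210). Its levels at lead 210 were 16.7 and 15.6 CPM in pools A and B and 11.6 and 8.69 CPM in pools D and E, and in controls they were 6.45 and 5.46 CPM in pools A and B and 9.47 and 10.8 CPM in pools D and E. At lead 210 the steroid enzyme gene hsd11b1.L and the signalling gene chn2.L followed, with differences of 0.69 ± 0.13 and 0.99 ± 0.19, and at lead 630 meltf.S with 0.79 ± 0.16 (none past the threshold).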

How the data were processed

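Read counts per gene came from 15 libraries of pooled whole embryos. Per the labels' protocols, libraries were made from poly(A) RNA with a directional kit. Trim Galore, HISAT2, kallisto and edgeR are named in the submitters' processing notes. Build, annotation, counter and strand setting: not given in the sources used here, so values of near-identical copies and of overlapping antisense genes are uncertain. The authors deposited raw counts for 37018 Entrez genes. The authors computed log2 fold changes, mean CPM on a log2 scale, a likelihood-ratio score and p-values for their own lead comparisons; these tables served here for gene names alone. Symbols came from the RefSeq table of assembly Xenopus_laevis_v10.1 for 33597 identifiers and from the authors' tables for 1468; 1953 stayed unnamed, and 12815 carried another symbol in the authors' tables. No coordinates are given, because the build is unknown.

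Counts of the 12 A, B, D and E libraries were fitted in edgeR 4.0.16 (R 4.3.3; limma 3.58.1 and DESeq2 1.42.0 served for alternatives) with filterByExpr, TMM and robust quasi-likelihood, the letter set and the lead group as terms; A against B, D against E and the differences in lead response used letter and group terms on the same libraries. Benjamini-Hochberg adjustment ran over 27690 genes, with calls under 0.05. The SE is the absolute log2 difference divided by the square root of F. Each library's depth is given with the results; a floor of 3 counts covers counting error only. All 105 library pairs differed by more than sampling noise (chi-square per gene 3.73 to 29.2). The test was also run on simulated counts, drawn independently for each pool. The outcome is not given here, and such a run cannot bear on a split chosen from the data.

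The letters, the 49 gene lists and the named-gene rule were chosen with earlier results of these data known. List membership went by symbol, ignoring .L and .S, and some genes stood in several lists, so the counts of lists are not independent. The rule passed over every gene without a symbol or with a placeholder symbol, such as LOC and a number. It took, between the sets, the 8 largest log2 differences each way among called genes of 5 CPM or more, and from each list the 3 members of smallest p where 5 or more passed, otherwise 1. For A against B and D against E it took the 3 largest each way, or the 3 smallest p each way where fewer passed, and for lead responses the 5, or where fewer passed 3, smallest p each way. The genes mt4, gstp1 and mki67 were named whatever their values; dmw, fixed in the same way, was not tested. Some genes that the rule named are not reported here. Other genes are marked as chosen after their values were seen. The genes acta2.S, hoxc12.S, krt70.S, atp4b.L and atp4b.S carry no such mark but were not named by the rule either. Alternatives were other filters, scalings and tools, summed homeologs, letter blocks, all 15 libraries, no lead covariate and leaving out each library. The lists' values without control B, their RLE and upper quartile medians, the crystallin family and the counts by level were added after seeing the data.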

Additional observations from a re-analysis of the deposited data

Results flagged for a closer look

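In each lead group of 5 pools, the highest or lowest pool was compared with the others for every list sum and named gene. Of 435 groups tested 18 had a pool standing clear of the rest by Dixon's criterion; chance alone flags about 1 in 20 groups. Among list sums, exocrine pancreas stood at 2855 CPM in control B (the other controls at 17.3 to 53.8 CPM), at 92.4 CPM in lead 210 C (the others at 26.9 to 36.4) and at 103 CPM in lead 630 B (the others at 29.3 to 48.7). The gamma crystallin sum was low in lead 210 E at 478 CPM, against 1950 to 2519 CPM in the other lead 210 pools. Ionocyte genes were high in lead 210 D at 959 CPM (860 to 877), pigment cell genes high in lead 210 B at 396 CPM (323 to 335) and fatty acid synthesis genes high in lead 630 E at 874 CPM (814 to 829). Notochord genes were low in lead 210 D at 21.2 CPM (24.6 to 25.1) and erythroid genes low in lead 630 C at 3824 CPM (4527 to 4664).

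Single genes standing high in 1 pool were fbn2.S in lead 630 B at 7.24 CPM (2.93 to 4.02 in the others), gfi1.L in lead 210 A at 3.77 CPM (1.66 to 2.18), otx2.L in control E at 28.3 CPM (18.4 to 21.0) and lyve1.L in control A at 3.66 CPM (1.66 to 2.13). High in 1 pool were also slc25a37.L in lead 210 A at 1.38 CPM (0.295 to 0.597), mmp8.S in lead 630 A at 4.84 CPM (1.2 to 1.79), rora.L in lead 630 A at 13.2 CPM (6.91 to 7.21) and gstp1.L in control C at 64.2 CPM (12.0 to 23.5). The gene nfe2l2.S was low in lead 210 E at 50.5 CPM (58.6 to 61.4).

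Among the genes named for the smallest p of a difference in lead response, or named whatever their values, the response ran in opposite directions in every A and B pool and every D and E pool for 6. Over all 27690 tested genes the same held for 1076 (3.89%) at lead 630 and 1061 (3.83%) at lead 210, and the choice by p favours such genes. The difference in response to lead 630, A and B minus D and E, was -1.21 for the deubiquitinase gene usp33.L, -0.74 for cnksr1.S and -0.63 for ttyh3.L. At lead 210 it was -1.47 for the inflammasome gene nlrp3.L, -1.01 for usp33.L, -1.26 for minpp1.S and 0.40 for the division marker gene mki67.S. Each difference was tested in edgeR and none passed (adjusted p from 0.792 to 1). The level of usp33.L was 18.1 and 20.6 CPM in controls A and B and 9.63 and 8.42 CPM in controls D and E.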

How the results depend on the processing

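Between the sets, RLE and upper quartile factors, both other filters, limma-voom, DESeq2, summed homeologs and all 15 libraries kept the counts within 1.5 times the 2081 higher and 1407 lower genes. Without the lead covariate 910 genes were lower, and 69.0% of the genes past the threshold were shared. Leaving out 1 library gave 1324 to 2687 higher and 799 to 1663 lower; the counts moved most without lead 210 E (1376 and 799), control E (1324 higher), control A (1332 higher) and lead 210 A (900 lower). Of the 96 named genes gstp1.L, which did not pass, changed sign (-0.101 to 0.125 over the omissions) and no other did under any setting; 21 lost their place past the threshold in at least 1 such omission, 17 of them in 6 or more of 12, among them crygdl.5.L, crygdl.12.L, hspa1a.L, trdn.L, usp6nl2.S and gfi1.L.

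Of 15 same-letter pairs 8 correlated over 0.1 (range -0.112 to 0.365), and 6 of 15 libraries correlated best with their own letter. By letter the pairs ran from 0.159 to 0.278 for A, 0.025 to 0.365 for B and -0.11 to 0 for C. For D they ran from -0.112 to 0.088 and for E from 0.107 to 0.282. Pairs of different letters ran from -0.342 to 0.326. The letter was not used as a pairing in the main comparison, and whether same-letter pools were more alike was not tested. With counts summed per letter (a replicate block, 2 letters against 2), 1342 genes were higher and 792 lower; 51.9% of the genes past the threshold were shared, and 23 named genes no longer passed, among them col8a2.L, both crygdl copies, atp4a.S, tmod1.L, trdn.L, otx2.L, tat.S, tat.L, gls2.L and klf6.L. With the letter as a random replicate block in limma-voom there were 2984 and 2019, at a consensus correlation of -0.077. As a fixed replicate block it gave 1 gene for the lead 630 response and 0 for lead 210.

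A against B, 1 gene in edgeR, became 3 without a filter, 0 with limma-voom or all 15 libraries, 29 with DESeq2 and 0 to 6 without 1 library. D against E became 6 with DESeq2 and 0 to 1 without 1 library. The lead 630 response difference became 5 with DESeq2 and 0 to 6 without 1 library (6 without control A), the lead 210 one 5 with DESeq2 and 0 to 18 (18 without lead 210 D). The cause of these changes was not tested. Depth limits genes near the floor of 0.122 to 0.277 CPM, and 2 or 3 pools a side limit the tests of letters and lead responses to large differences.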
